A study of Bombus terrestris with 8 samples.

Results

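The 100 kb windows of the *B. terrestris* genome that held the most regions of open chromatin are described here. Peak intervals of 8 ATAC-seq samples were merged where they overlapped by at least 1 bp, the 18 placed contigs of the Bter_1.0 assembly were cut into windows of 100 kb from their first base, and merged regions were counted by their midpoint. The 5% of windows with the highest counts were kept, with ties at the threshold. This gave 121 of 2177 windows, called dense windows, and they held 5810 of the 52844 merged regions on placed contigs (11.0%). With contigs that are not placed on a chromosome, the 8 samples had 63245 merged regions in all, and the unplaced contigs were not used for windows.

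The samples were whole bodies of workers from commercial colonies at 4 stages (egg, larva, pupa, adult), and each stage had 2 samples. An adult sample was an individual worker. An egg, larva or pupa sample was pooled tissue with about the volume of an adult bee, so its replicates are pools. No genotype or treatment is given for any group, and the colony each sample came from is not stated. Whole animals mix many cell types, so that a region open in more cells and a region more open in each cell cannot be told apart. Peak lists carry no cell type markers against which the labelled tissue could be checked.

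In ATAC-seq, a transposase inserts sequencing adaptors where DNA is not shielded by nucleosomes, and the sites it reaches are mostly promoters, enhancers and other regulatory DNA. Such sites are not spread evenly along insect chromosomes. They tend to gather where genes lie close together, and also around developmental genes with many enhancers. Gene positions and the sequence of Bter_1.0 were not used here, so the dense windows are given by position without gene names or bases.

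The lists held 7875 to 31105 distinct intervals on placed contigs. These are peaks called in each sample alone, without the paper's filter for peaks reproducible between replicates. Both larval lists, with 11768 and 7875, were shorter than the other 6, and larval counts per window were lower as well. Shares of each list are therefore given for the dense windows together and for calls by stage. Most single windows are given by counts, in which larval values are low in part through the shorter lists.

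A dense window held 44 to 64 merged regions, with a median of 47. The other 2056 windows held 0 to 43, with a median of 23, and 2 of them were empty. The split follows from the rule and is no test. Counts went over the threshold without a gap, since 18 windows had 44 regions, just inside it, and 17 windows had 43, just outside. Over all windows the variance of the count was 6.04 times its mean of 24.3. Merged regions covered 21.7% of the dense windows, which came to 2.62 Mb of 12.1 Mb, and 10.3% of the other windows.

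**Figure D1:**
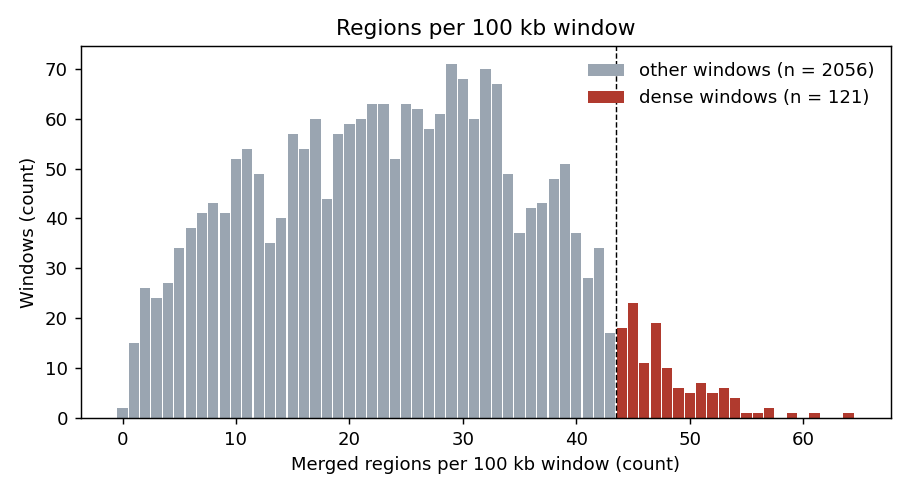
Number of 100 kb windows (y axis) by the count of merged regions they hold (x axis), with the 121 dense windows in red and the 2056 other windows in grey. The dashed line marks the threshold, and the counts run across it without a break, from 17 windows with 43 regions to 18 windows with 44.

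The window with the most merged regions was NC_015772.1 from 16100001 to 16200000, with 64. It held 25 and 25 intervals of egg replicates 1 and 2, 13 and 7 of the larva, 25 and 30 of the pupa, and 30 and 30 of the adult. No single list thus had more than 30 intervals there, while the 8 lists together had 64 merged regions. As shares of their lists, the larval values of 0.110% and 0.0889% overlapped the egg values of 0.0944% and 0.105%. Both adult shares, 0.143% and 0.121%, were above those of the other 6 samples. Of the 64 regions, 21 (32.8%) had a peak in 1 sample, against 34.3% of all merged regions on placed contigs, and 4 (6.25%) had a peak in all 8, against 9.23%.

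The second was NC_015774.1 from 9500001 to 9600000, with 61 regions. It held 30 and 29 egg intervals, 12 and 9 larval, 28 and 24 pupal, and 24 and 31 adult ones. Of its regions, 22 (36.1%) had a peak in 1 sample and 6 (9.84%) in all 8, near the shares over all regions.

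The third, NC_015772.1 from 7800001 to 7900000 with 59 regions, stood apart in its counts. It held 37 and 37 egg intervals, 24 and 18 larval, 40 and 40 pupal, and 30 and 33 adult ones. No dense window had higher counts in either larval list. It had 12 regions with a peak in all 8 samples, the most of any dense window, against a median of 4. These were 20.3% of its regions, against 9.23% of all merged regions on placed contigs. By share it was not the highest, since NC_015778.1 from 2300001 to 2400000 had 11 of 44. A peak in 1 sample was found for 13 (22.0%), against a median of 15 per dense window and 34.3% of all regions. The larval lists had 0.204% and 0.229% of their intervals in this window, more than any of the other 6 lists.

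The next places went to NC_015768.1 from 2500001 to 2600000 and NC_015769.1 from 7300001 to 7400000, with 57 regions each. NC_015774.1 from 6900001 to 7000000 followed with 56, and NC_015767.1 from 200001 to 300000 with 55. The last of the first 10 were NC_015762.1 from 16000001 to 16100000, NC_015767.1 from 2000001 to 2100000 and NC_015769.1 from 6800001 to 6900000, with 54 each. A further window with 54 regions belongs to a run named below. Larval counts differed between these windows. NC_015774.1 from 6900001 had 8 and 2 larval intervals, while NC_015769.1 from 7300001 had 18 and 8. In the latter window merged regions covered 27820 bp, the highest value of the dense windows, and in all of them it ran from 16795 bp upwards.

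**Figure D2:**
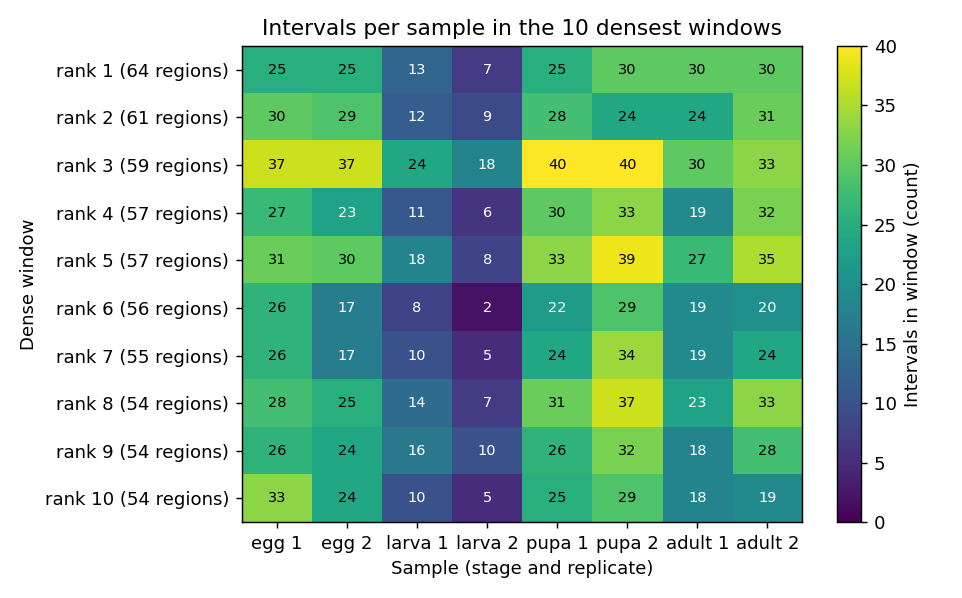
Number of intervals in the 10 densest windows (rows, with their merged regions) for each of the 8 samples (columns), as a colour and a figure. The larval columns are lowest in every row, between 2 and 24, and the third row has the highest larval counts, 24 and 18. Counts are not scaled to list length, and the larval lists were the shortest.

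Dense windows were unevenly placed over the contigs. NC_015772.1 had 17, NC_015768.1 had 15 and NC_015774.1 had 14, and at the other end NC_015771.1 had 1. As a share of a contig's windows this was 14.1% of the 99 windows of NC_015774.1, 9.83% of the 173 of NC_015772.1, 8.29% of the 181 of NC_015768.1 and 0.730% of the 137 of NC_015771.1. A high mean did not go with it in each case. NC_015771.1 had a mean of 25.9 regions per window, above the mean of 23.2 of NC_015772.1, but its highest window had 51 and that of NC_015772.1 had 64. Of the dense windows, 17 (14.0%) lay within 1 Mb of the first base or the last interval of a contig, against 17.4% of all windows.

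The 121 dense windows formed 100 runs. In 82 cases the window stood alone, 15 runs had 2 adjacent windows and 3 runs had 3, so that 39 windows (32.2%) had a dense neighbour. With the densest 1% of windows this share was 18.2%. Of the 242 neighbours of the 121 dense windows, counted once for each dense window they adjoin, 17.4% were dense. Of all windows, 5.56% were dense, and the difference was not tested. The longest runs were NC_015772.1 from 9000001 to 9300000, with 143 merged regions, NC_015768.1 from 1600001 to 1900000, with 141, and NC_015774.1 from 8300001 to 8600000, with 134. They were followed by the pair of windows on NC_015772.1 from 16000001 to 16200000, with 54 and 64 regions, which includes the densest window, and by the pair on NC_015769.1 from 7300001 to 7500000, with 57 and 52.

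Around the dense windows the count fell within 300 kb. Windows next to a dense window had a mean of 33.1 ± 10.8 regions (SD over 242 neighbours), and those 200 kb away had 29.0 ± 12.7 (SD over 241 neighbours). A window near several dense windows was counted for each of them. At 300 kb the mean was 26.3, near the 24.3 of all windows. The 186 adjacent windows that were not dense themselves, each counted once, had a mean of 29.4. Counts of adjacent windows had a Pearson correlation of 0.478 over 2159 pairs, which share the same libraries and are given as a description.

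**Figure D3:**
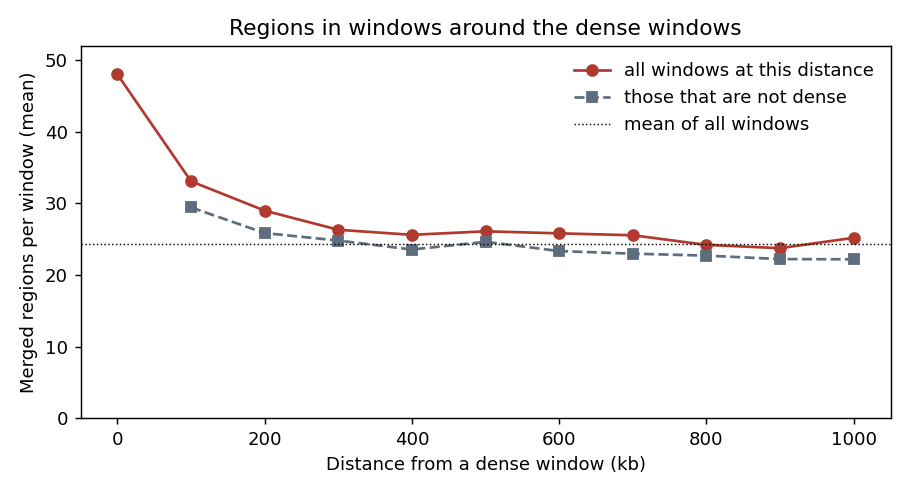
Mean number of merged regions per 100 kb window (y axis) against the distance from a dense window in kb (x axis), for all windows at that distance (red) and for those that are not dense (grey dashes), with the mean of all windows as a dotted line. The red line, where a window near several dense windows counts for each, falls from 48.0 in the dense windows to 33.1 at 100 kb and 26.3 at 300 kb.

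Within a dense window the regions were spread along its length. Of the 121 windows, 118 (97.5%) had a region in each of their 10 stretches of 10 kb, against 35.7% of the other windows, which follows in large part from the number of regions. The fullest stretch of a dense window held a median of 8 regions. Midpoints of neighbouring regions lay a median of 1478 bp apart, against 2323 bp in the other windows, and 29.2% of these gaps were under 1 kb, against 19.6%. Shorter gaps, too, follow in large part from the number of regions for which the windows were chosen. The regions themselves were of nearly the same width, with a median of 377 bp against 371 bp.

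Whether density was shared by the stages was asked with lists that had no part in the choice. For each sample, dense windows were chosen from the 6 lists of the other 3 stages, and its own intervals were counted inside and outside them. Egg replicates 1 and 2 had 23.4 and 22.9 intervals per chosen window, against 11.5 and 10.2 per remaining window. The larval samples had 11.2 and 6.90 against 5.08 and 3.43. For the pupa the values were 23.6 and 27.8 against 11.5 and 13.5, and for the adult 19.1 and 23.4 against 9.14 and 10.8.

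The ratio inside to outside was 2.04 and 2.24 for egg, 2.21 and 2.01 for larva, 2.04 and 2.05 for pupa, and 2.09 and 2.17 for adult samples. On the log2 scale the mean was 1.07 ± 0.0603 (SD, n = 8), and density was higher inside the chosen windows in 8 of 8 samples (exact sign-flip permutation test, two-sided, p = 0.00781, the smallest this design allows). A window chosen without a stage thus held about 2.11 times as many intervals of that stage as another window. The 8 samples were read against the same assembly and were treated as replicates, and with the means of the 4 stages the smallest possible p was 0.125. Many sites were also shared by the stages. Of dense-window regions 43.5% had a peak in 1 stage alone, against 47.2% in other windows. The ratio does not tell the same sites from different sites in the same window.

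**Figure D4:**
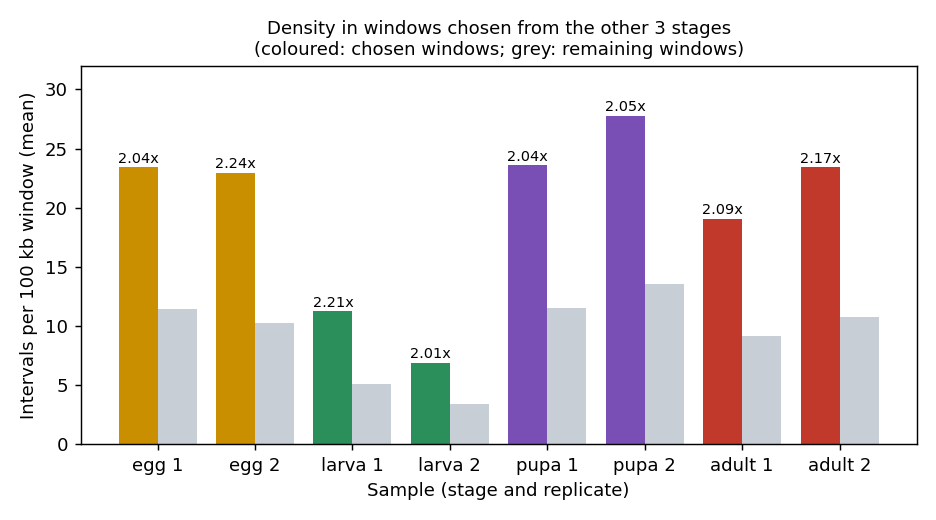
Mean number of intervals per 100 kb window (y axis) in each sample (x axis), in windows chosen as dense from the lists of the other 3 stages (coloured) and in the remaining windows (grey), with their ratio above. The ratio lies between 2.01 and 2.24 in all 8 samples, although the larval counts are lower than the others.

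In the 121 dense windows themselves, 11.1% and 11.8% of the intervals of the egg lists were found, 11.4% and 10.5% of the larval, 11.0% and 11.2% of the pupal, and 11.3% and 11.9% of the adult. Egg and larval shares overlapped those of each other stage, and both adult shares lay just above both pupal ones. The rule used these intervals, so the share was not tested. By stage the mean was 11.5% ± 0.465 (SD, n = 2) for eggs, 10.9% ± 0.620 (SD, n = 2) for larvae, 11.1% ± 0.169 (SD, n = 2) for pupae and 11.6% ± 0.369 (SD, n = 2) for adults. Only 1 dense window lacked an interval in a list, that of larva replicate 2.

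When the rule was applied to the lists of 1 stage alone, 140 windows were dense for eggs, 133 for larvae, 119 for pupae and 117 for adults. Of these, 78 (55.7%), 45 (33.8%), 75 (63.0%) and 61 (52.1%) were among the 121. Windows dense in all 4 stages on their own numbered 24, and 19 of them were among the 121. Another 11 of the 121 were dense in no single stage and passed through the sum of sites from different stages. Of all 2177 windows, 1892 were dense in no single stage. The 121 windows, 5.56% of all, were chosen from these same lists. Their overlaps with the stage sets thus depend in part on the rule and were not tested. Larval lists gave 13152 merged regions, against 34535 for eggs, 34655 for pupae and 27648 for adults. Egg and larva shared most, 70 windows, which made up 50% of the egg set and 52.6% of the larval set, and larva and pupa shared fewest, 45, or 33.8% and 37.8%.

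Across the 121 windows, the summed counts of egg and larva had a Spearman correlation of 0.723, and the other pairs of stages had 0.233 for pupa and adult to 0.465 for larva and adult. Over all 2177 windows that order was not found, with 0.843 for egg and larva, 0.880 for egg and adult, 0.864 for egg and pupa, and 0.735 for larva and pupa at the low end. Between the replicates of a stage the correlation was 0.375 for eggs, 0.802 for larvae, 0.652 for pupae and 0.773 for adults. Over all windows these correlations between replicates were 0.830 to 0.945, with 0.853 for eggs. The windows were chosen for high counts, which narrows the range, so the values are descriptions.

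A window was then called for a stage where both its samples had a larger, or a smaller, share of their list than each of the other 6. Both egg samples were higher in 8 dense windows (6.61%), against 3.67% of all windows, and lower in 1, against 2.53%. The larval samples were higher in 18 (14.9%), against 15.4%, and lower in 25 (20.7%), against 13.7%. Pupal samples were higher in 8 (6.61%), against 10.3%, and lower in 14 (11.6%), against 8.22%. For the adult it was 15 (12.4%) higher, against 7.9%, and 9 (7.44%) lower, against 6.66%. Larval calls were the most frequent in both directions over all windows as well. The larval lists had a median of 11 and 7 intervals per dense window, against 20 to 29 in the other lists. A part of list length in the larval calls was not tested. Other windows have lower counts and more ties, and the difference of these shares was not tested.

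The dense windows with the highest share of a stage relative to the other samples were picked by these values. For the pupa it was NC_015764.1 from 9600001 to 9700000, with 30 and 37 pupal intervals, 17 and 10 of the egg, 5 and 2 of the larva, and 17 and 19 of the adult. Its share of the pupal lists was 2.10 times the mean of the other samples, the largest such ratio of any stage. NC_015773.1 from 9700001 to 9800000 followed, with 25 and 30 pupal intervals and a ratio of 1.67. In both windows the 2 pupal shares lay above those of the other 6 samples.

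For the larva, NC_015769.1 from 1000001 to 1100000 had 21 and 15 larval intervals and a ratio of 1.62, with 32 and 28 in the egg, 29 and 31 in the pupa, and 25 and 29 in the adult. It was dense in all 4 stages on their own, and 10 of its 45 regions had a peak in all 8 samples, against 9.23% of all merged regions. The window was picked by its larval share, and a peak in all 8 samples needs both larval lists. That count thus depends in part on the pick and was not tested. NC_015773.1 from 10400001 to 10500000 came next, with 17 and 11 and a ratio of 1.57. It had 24 and 28 egg, 22 and 31 pupal, and 16 and 19 adult intervals, and both adult shares lay below those of the other 6 samples.

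For the adult, NC_015776.1 from 7600001 to 7700000 had 24 and 28 adult intervals, 16 and 24 of the egg, 5 and 4 of the larva, and 20 and 24 of the pupa, a ratio of 1.68. NC_015768.1 from 8000001 to 8100000 had 13 and 24 adult intervals and a ratio of 1.64, but adult replicate 1 did not exceed each of the other samples there. Its larval counts were 1 and 2. For the egg, NC_015770.1 from 10500001 to 10600000 had 24 and 18 egg intervals and a ratio of 1.65, with 7 and 9 in the adult. Its pupal counts of 22 and 25 were as high, so that its egg and pupal shares overlapped. NC_015766.1 from 10100001 to 10200000 had 33 and 21 egg intervals and a ratio of 1.56, with both egg shares above the others.

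Under the rule, regions of the dense windows were about as widely shared between samples as other regions. All 8 samples had a peak in 528 of 5810 (9.09%), against 9.23% of all merged regions on placed contigs. A peak in 1 sample was found for 1812 (31.2%), against 34.3%. Regions seen in the pupa alone made up 17.1%, against 19%, those of the egg alone 15.8%, against 16.8%, those of the adult alone 10.1%, against 9.94%, and those of the larva alone 0.465%, against 1.08%. The last share stands for 27 regions. A peak in each stage but the larva was found for 12.3%, against 11.6%. A site shared by several samples counts once in the rule, so these shares depend on it and were not tested. With −log10 (P value) above 20, 3.57% of dense-window regions had a peak in all 8 samples, against 4.42% of all regions in that setting, and with lists of equal length it was 17.3%, against 16.8%. With windows ranked by summits the share was 15.3%, against 9.23%, where an interval found in several samples adds to the count each time. With windows ranked by the base pairs of their merged regions it was 11.5%, also against 9.23%.

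The height of the peaks was not used to choose the windows. It is given as the fold enrichment that the peak caller set against the background near a peak within each library, at the best summit of an interval. The median in the dense windows was 3.42 and 3.48 in the egg samples, against 3.74 and 3.79 in other windows. For the larva it was 3.40 and 3.67 against 3.64 and 3.74, for the pupa 3.25 and 2.88 against 3.45 and 3.11, and for the adult 3.20 and 2.56 against 3.39 and 2.71. Intervals of the dense windows were the lower ones in 8 of 8 samples, by a small step, and the samples differed more from each other than the windows did.

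The difference of the medians, dense minus other on the log2 scale, was -0.09 ± 0.0330 (SD, n = 8), or 0.938-fold, and ran from -0.13 in egg replicate 1 to -0.03 in larva replicate 2 (exact sign-flip permutation test, two-sided, p = 0.00781, the smallest this design allows). With windows chosen from the other 3 stages it was -0.08, with the same exact p. The size depended on the intervals compared. It was -0.16 with −log10 (P value) above 20, -0.15 with lists of equal length and -0.03 with windows ranked by summits. In the last setting the exact sign-flip p was 0.0469, a value that cannot arise if all 8 samples are lower. Neighbouring regions also lay closer together in dense windows, as given above, and the background is estimated near each peak, so a part of it in the difference was not tested.

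By stage the difference was -0.13 ± 0.00214 (SD, n = 2) for eggs, -0.06 ± 0.0508 (SD, n = 2) for larvae, -0.10 ± 0.0213 (SD, n = 2) for pupae and -0.08 ± 0.00264 (SD, n = 2) for adults. No difference between stages beyond the spread of their samples was detected (exact permutation test over all 105 ways to form 4 pairs, p = 0.267, smallest possible 0.00952). This call changed with the setting, since the exact p was 0.0286 with the densest 10% of windows and 0.0476 with lists of equal length.

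Fold enrichment did not fall steadily with density. The mean over the 8 samples of the median log2 fold enrichment was 1.69 ± 0.184 (SD, n = 8) in windows with 0 to 9 regions, 1.80 ± 0.179 with 10 to 19, 1.82 ± 0.167 with 20 to 29, 1.76 ± 0.172 with 30 to 43, and 1.68 ± 0.168 in the dense windows. From 20 to 29 regions upwards, each step was lower in 8 of 8 samples. Against the emptiest windows the dense ones were lower in 3 of 8 samples, with a mean difference of -0.01 ± 0.0776 (SD, n = 8) on the log2 scale. The highest of these means thus fell in windows with 20 to 29 regions.

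**Figure D5:**
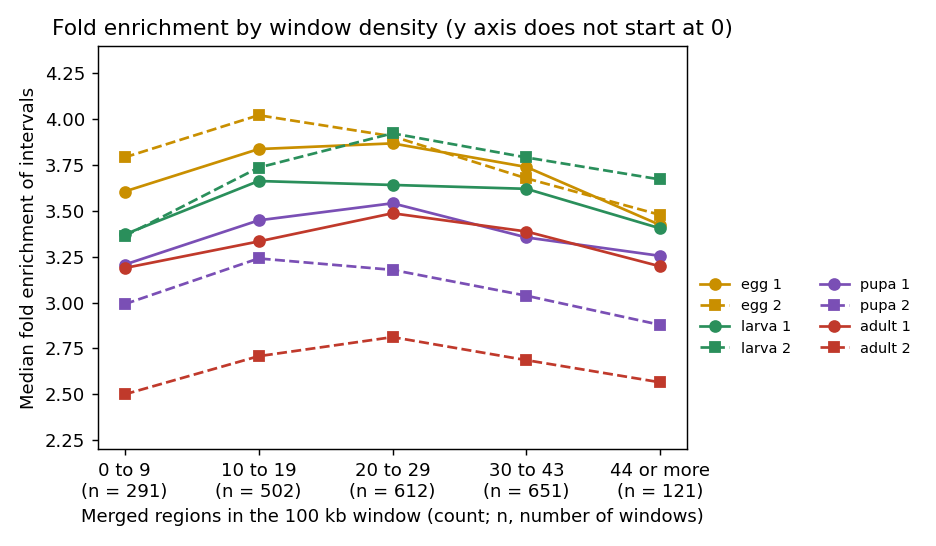
Median fold enrichment of the intervals (y axis, starting above 0) by the number of merged regions in their 100 kb window (x axis), with a line for each of the 8 samples. Medians are lower in the dense windows, with 44 or more regions, than in windows with 20 to 29 regions in 8 of 8 samples, and low again in windows with 0 to 9.

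The difference was largest for regions with a peak in all 8 samples, a comparison chosen after the data were seen. In these the median fold enrichment was 5.14 and 5.25 in the egg samples, against 6.01 and 6.46 in other windows, and 4.31 and 3.92 against 4.86 and 4.30 in the larva. In the pupa it was 4.92 and 4.30 against 5.71 and 5.24, and in the adult 4.80 and 3.85 against 5.70 and 4.67. The mean difference was -0.23 ± 0.0585 (SD, n = 8) on the log2 scale, lower in 8 of 8 samples (exact sign-flip permutation test, p = 0.00781). In regions with a peak in 1 sample it was -0.06 ± 0.0691 (SD, n = 8), lower in 7 of 8 (exact p = 0.0391), with as few as 9 intervals in larva replicate 2.

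Among the 528 dense-window regions with a peak in all 8 samples, 24 (4.55%) belonged to the upper 10% of all such regions by their lowest fold enrichment, against 10.4% of those in other windows. Regions tied at the limit were left out, so that this upper set held 477 of 4880 regions (9.77%). The strongest was NC_015773.1 from 9098832 to 9099743, in the run from 9000001 to 9200000. Its fold enrichment was 7.88 and 8.88 in the egg, 8.33 and 7.43 in the larva, 9.37 and 8.28 in the pupa, and 12.4 and 8.93 in the adult. The lowest of these placed it at rank 87 of the 4880 regions on placed contigs with a peak in all 8 samples. NC_015776.1 from 5221048 to 5222139 came next, with values from 6.92 to 10.4, and then NC_015777.1 from 1956810 to 1957465, with 6.80 to 11.5. NC_015772.1 from 7174866 to 7175532 ran from 6.64 to 9.94, and NC_015772.1 from 13861378 to 13862426 from 6.61 to 12.0. In these regions the fold enrichment was at least 6.61 in each sample from egg to adult.

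Other measures of the intervals moved less evenly. The median −log10 (P value) was lower in the dense windows in 5 of 8 samples, and the share of intervals with a value above 20 in 8 of 8, with the widest gap in the larva, 16.1% and 6.65% against 21.2% and 11.2%. The median width was lower in 7 of 8 samples, by at most 9 bp. An interval with more than 1 summit was less frequent in 7 of 8 samples, for example 9.11% against 12.1% in larva replicate 1, and larva replicate 2 was the exception with 15.6% against 15.1%. Since wide intervals merge more readily and so lower a window's count, width and summits were not tested.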

How the data were processed

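The 8 deposited peak lists were used, 1 per sample. They hold the peaks called in each sample alone. For its further analyses the paper kept only peaks that were reproducible between the replicates of a stage. That filter was not applied here. The authors filtered reads with SOAPnuke, aligned them to Bter_1.0 with Bowtie2 2.2.5, keeping up to 200 alignments per read, and ran MACS2 2.2.5 on every sample separately with summits split. The deposited lists give fold enrichment (a ratio to the local background), −log10 of the p-value and of the q-value, and a score derived by the authors' peak caller from the q-value. None was normalized between samples. Start, end and summit positions were also deposited. No read counts are in the lists, and the depth of a peak is therefore unknown.

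An interval with several summits was counted once, at its best summit. A contig's end was taken as the last base of any interval. Tests were exact permutation tests over samples, and the code was tested on simulated data. Windows named are the 10 densest, the 5 longest runs and the 2 per stage with the highest relative share, and regions named are the 5 with the highest lowest fold enrichment. Members, lists and rules were chosen with earlier results of these data known. Alternatives covered window size and start, threshold, list length, the unit counted, merging and leaving out samples. The gene table at hand was of another assembly and was not used here. Python 3.11.15 was used with numpy 2.4.6, pandas 2.3.3, scipy 1.17.1 and matplotlib 3.10.9.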

Additional observations from a re-analysis of the deposited data

How the results depend on the processing

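As means over the samples, the held-out density ratio was above 1-fold and the fold enrichment difference below 0 in every setting run. With the 4 stage means in place of 8 samples, the exact p was 0.125 for both (1.07 and -0.092 on the log2 scale), the smallest that 4 values allow. Leaving out each sample gave a log2 ratio of 1.03 to 1.11, which is 2.05-fold to 2.16-fold, and a log2 difference of -0.10 to -0.08. Over the other settings the ratio was 1.94-fold to 2.73-fold and the log2 difference -0.23 to -0.03. The between-stage sum of squares of that difference, 0.00455, passed the threshold with the densest 10% of windows (0.00522, exact p = 0.0286) and with lists of equal length (0.0226, exact p = 0.0476), and the cause was not tested. As a replicate block, stage labels permuted within each replicate number gave 0.00455 with an exact p of 0.375. Deviations of same-numbered samples over windows correlated between stages by -0.07 to 0.197, the highest for egg and pupa. With 2 samples per stage these values cannot decide whether the numbers pair the samples. Settings without the 3 contigs with most dense windows, within contigs, by number of samples with a peak, and with held-out windows for fold enrichment were added after the data were seen. The paper gives the mapped reads of each sample, but the reads at a single peak are unknown, which limits what its height can show.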
